A study of Mus musculus with 3 samples.

Results

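The small nuclear RNAs (snRNAs) of the spliceosome were examined as the transcripts of the mRNA table that GENCODE M21, the mouse gene annotation on GRCm38, types as snRNA. There were 110 such transcripts among the 56651 of the table, while the annotation holds 1383, and 44 of the 110 had at least 20 reads over the 3 libraries. The 3 libraries compared were 1 each of the apoptotic bodies (ABs) of bone marrow macrophages (BMM-ABs), preosteoclasts (pOC-ABs) and mature osteoclasts (mOC-ABs). The cells came from marrow of C57BL/6 mice at postnatal week 11 and were made into macrophages with M-CSF at 50 ng/mL for 72 h. The pOCs then received M-CSF at 30 ng/mL and RANKL, the osteoclast differentiation factor, at 100 ng/mL for 24 h, and the mOCs the same for at least 72 h. All groups received the inducer of apoptosis, which the labels give as alendronate (500 μM, 12 h) and the methods of the study as staurosporine. The times and doses given here are those of the labels. For the time of macrophage culture, the M-CSF dose beside RANKL and the dose and time of the inducer, the methods give other values. The sample titles name cells where the design text names ABs, and the latter was followed here. Since each group has 1 library, no difference could be set against a spread between replicates, so no p-value is given, and every interval is a 95% Clopper-Pearson interval that covers counting error alone. Sets of 3 values follow the order of differentiation, BMM-ABs first and mOC-ABs last, and log2 ratios the order G1 (pOC-ABs against BMM-ABs), G2 (mOC-ABs against BMM-ABs) and G3 (mOC-ABs against pOC-ABs).

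Each spliceosomal snRNA is the core of a ribonucleoprotein (snRNP). U1 pairs with the 5′ splice site, U2 with the branch site, and U4, U5 and U6 join as a tri-snRNP in which U6 later replaces U1 at the 5′ splice site. U11 and U12 do the work of U1 and U2 on the rare minor introns, whereas U7 acts on histone mRNA 3′ ends and not in splicing. All but U6 carry an Sm site, the short U-rich stretch on which a ring of Sm proteins closes. Like the other RNAs of this kind they end without a poly(A) tail, while the methods of the study describe libraries from RNA bound to poly-T beads.

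Gene names give the U class of few mouse snRNAs, because most copies carry only a Gm number. A transcript was therefore put in the class of an RNA named Rnu in the annotation when the sequences were at least 90% identical. The lowest identity so assigned was 91.4% and the highest left unassigned 88.8%. This gave 23 U1, 12 U2, 7 U5, 22 U6, 1 U7, 1 U11 and 2 U12 transcripts and left 42 unassigned. None of the RNAs named Rnu that served for this was a U4 RNA, so U4 was not assessed as a class and any copy of it counts as unassigned. The U1 transcripts were split into 14 closer to Rnu1a1 (U1a) and 9 closer to Rnu1b1 or Rnu1b6 (U1b), the form of mouse U1 known from embryonic tissues.

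The RNAs that carried most reads, and those that behaved differently from the rest, are shown as DNA letters from the GENCODE M21 transcripts, 5′ to 3′. Capitals in Gm22068 mark the letters ACTTACCTG, which pair with the 5′ splice site, and the Sm site ATTTGTG. Gm22068 is U1a, lies at chr11:87426716-87426879 on the plus strand of GRCm38 in an intron of Tex14, and had more reads than any other member. In Gm24305, Gm22614, Rnu1b6 and Rnu1b1 capitals mark instead the letters that differ from Gm22068. Gm24305 (chr12:54734555-54734718, minus strand, intergenic) is a U1a copy with 1 such letter. Gm22614 (chr3:96488729-96488893, plus strand, intergenic), Rnu1b6 (chr3:96460024-96460189, minus strand) and Rnu1b1 (chr3:96359953-96360117, minus strand, intergenic) are U1b copies with 6, 8 and 7.
Gm22068: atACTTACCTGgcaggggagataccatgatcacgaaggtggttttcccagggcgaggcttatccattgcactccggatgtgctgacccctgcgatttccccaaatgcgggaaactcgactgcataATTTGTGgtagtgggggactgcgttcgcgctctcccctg
Gm24305: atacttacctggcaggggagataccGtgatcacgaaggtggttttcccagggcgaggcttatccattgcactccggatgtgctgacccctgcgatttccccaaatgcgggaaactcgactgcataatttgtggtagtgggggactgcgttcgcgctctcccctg
Gm22614: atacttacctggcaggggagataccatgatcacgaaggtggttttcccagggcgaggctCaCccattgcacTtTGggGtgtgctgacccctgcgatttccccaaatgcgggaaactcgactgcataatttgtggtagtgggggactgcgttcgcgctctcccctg
Rnu1b6: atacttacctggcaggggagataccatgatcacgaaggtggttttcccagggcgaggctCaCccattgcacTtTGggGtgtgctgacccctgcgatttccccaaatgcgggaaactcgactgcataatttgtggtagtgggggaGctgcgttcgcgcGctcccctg
Rnu1b1: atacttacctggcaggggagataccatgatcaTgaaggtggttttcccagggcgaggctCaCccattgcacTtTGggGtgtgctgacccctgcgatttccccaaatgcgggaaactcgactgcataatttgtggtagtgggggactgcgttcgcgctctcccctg

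The U2 copies Gm24497 (chr1:72244213-72244403, plus strand, intron of D230017M19Rik) and Gm24950 (chr11:101641748-101641938, plus strand, intergenic) are printed since the first led the class and the second was read in 1 library only. They differ at 2 positions, and capitals mark GTAGTA, which pairs with the branch site, and the Sm site ATTTTTG. Gm24950 has the same sequence as Rnu2-10, the only U2 copy named for its class.
Gm24497: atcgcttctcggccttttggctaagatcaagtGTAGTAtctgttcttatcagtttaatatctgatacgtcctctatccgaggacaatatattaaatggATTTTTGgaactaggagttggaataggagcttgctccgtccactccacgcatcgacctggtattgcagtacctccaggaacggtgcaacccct
Gm24950: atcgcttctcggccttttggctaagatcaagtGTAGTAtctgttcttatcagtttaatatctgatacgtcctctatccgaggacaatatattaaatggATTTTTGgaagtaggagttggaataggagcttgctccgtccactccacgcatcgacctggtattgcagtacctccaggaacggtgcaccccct

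Rnu11 (chr4:132270080-132270213, minus strand, across an exon of Gm28872 on the other strand) and Rnu12 (chr15:83149644-83149794, plus strand, intergenic) are snRNAs of the minor spliceosome, with their Sm sites (ATTTTTTG and ATTTTTG) in capitals. The unassigned Gm24407 (chr5:115490254-115490394, plus strand, intergenic) is printed as the unassigned transcript with the most reads, again with an Sm site in capitals.
Rnu11: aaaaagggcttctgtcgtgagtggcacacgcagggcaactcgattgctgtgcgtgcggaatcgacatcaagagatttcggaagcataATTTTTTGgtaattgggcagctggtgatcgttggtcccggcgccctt
Rnu12: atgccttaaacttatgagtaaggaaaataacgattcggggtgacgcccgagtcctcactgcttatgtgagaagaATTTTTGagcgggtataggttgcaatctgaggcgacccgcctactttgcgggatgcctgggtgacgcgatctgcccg
Gm24407: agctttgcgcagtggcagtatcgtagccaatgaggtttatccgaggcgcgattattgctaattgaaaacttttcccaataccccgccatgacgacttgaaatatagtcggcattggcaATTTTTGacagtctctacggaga

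These letters were largely shared within the classes, which were themselves set by sequence. ACTTACCTG was in 23 of 23 U1 transcripts and in 3.98% of all 1383 annotated snRNAs, and GTAGTA in 12 of 12 U2 transcripts and 3.69% of all. The U6 box ACAGAGA was in 20 of 22 U6 transcripts and 42.2% of all annotated snRNAs. The Sm letters ATTTGTG were in 23 of 23 U1 transcripts (12.9% of all), ATTTTTG in 12 of 12 U2 and 2 of 2 U12 transcripts (3.33% of all), and ATTTTTTG in 8 of the 110 members, the U11 transcript among them (1.37% of all). The letters were not particular to these classes, since ATTTGTG was also in 2 of 22 U6 and 8 of 42 unassigned transcripts, ACAGAGA in 15 of the unassigned, ATTTTTG in 3, and ACTTACCTG and GTAGTA in 2 each. The shares are for the transcribed strand. On the other strand ACTTACCTG was met in 0 and GTAGTA in 16 of the annotated snRNAs, ACAGAGA in 8, and the Sm letters in 131, 31 and 5.

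The snRNAs held a larger part of the reads in the ABs of both osteoclast stages than in BMM-ABs. All 110 members summed to 32095 of 9100082 mRNA-table reads, 54967 of 7387317 and 48436 of 7705592. That was 0.353% (0.349 to 0.357), 0.744% (0.738 to 0.7503) and 0.629% (0.623 to 0.634) of the reads. Per library total the sum was 2.11-fold higher in G1, 1.78-fold higher in G2 and 1.18-fold lower in G3. U1 and U2 together gave 96.8%, 97.3% and 96.2% of these reads. The 66 members under 20 reads, with 3 to 17 reads each, added 129, 134 and 97 reads.

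Among the 44 snRNAs with at least 20 reads, 31 (70.5%) were more than 2-fold higher in G1, against 14.5% of the 34650 transcripts of the table with as many reads. Only Rnu11 was more than 2-fold lower (2.27%), against 21.8% of all. In G2, 25 (56.8%) were higher, against 13%, and 1, again Rnu11, was lower, against 25.1%. In G3, 1 was higher, Gm24950, against 15.3% of all, and 13 (29.5%) were lower, against 20.5%. The median log2 ratios of the 44 were 1.48, 1.09 and -0.46, where those of all 34650 transcripts were -0.09, -0.18 and -0.06. Copies of identical sequence are counted singly here, although their reads cannot be told apart by their letters. Rnu1a1, Gm22634 and Gm26444 were among the 31, while the 7 copies of their sequence summed to a log2 ratio of 0.70 in G1. Rnu1a1 and Gm22634 were also among the 13 lower in G3, where that sum stood at -0.29.

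Other RNAs that lack a poly(A) tail, or whose precursors are short, mostly moved the same way. As shares of the reads of the mRNA and lncRNA tables together, snRNAs were 0.252%, 0.463% and 0.419%. The snoRNAs, guides of RNA modification in the nucleolus, were 0.0323%, 0.0768% and 0.0548%, and the scaRNAs, which guide modification of the snRNAs themselves, 0.00733%, 0.0135% and 0.0118%. Mitochondrial rRNA was 0.548%, 2.41% and 0.767%, miRNA precursors 0.233%, 0.354% and 0.313% and misc_RNA 0.0115%, 0.0157% and 0.0139%. The RNAs of the signal recognition particle at the Rn7s1 and Rn7s2 loci were 9.43%, 14.8% and 13.0%, and 3.14%, 5.48% and 4.48%. The RNA of RNase MRP (Rmrp) was 1.13%, 2.65% and 2.67%, and that of RNase P (Rpph1) 1.05%, 3.50% and 1.97%. Rn7sk, the nuclear RNA that holds P-TEFb inactive, went the other way, with 1.23%, 0.920% and 1.04%. Nuclear rRNA (70, 38 and 101 reads), mitochondrial tRNA (267, 290 and 211) and the vault RNA Vaultrc5 (45, 53 and 43) are given in reads because they were few. As a share of the reads, nuclear rRNA was lower in pOC-ABs than in BMM-ABs. The share of mitochondrial tRNA was lower in mOC-ABs than in BMM-ABs. The part of a general change in such RNAs in the snRNA values was not tested, and RNA content per AB and the number of ABs cannot be told apart in these libraries.

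**Figure D1:**
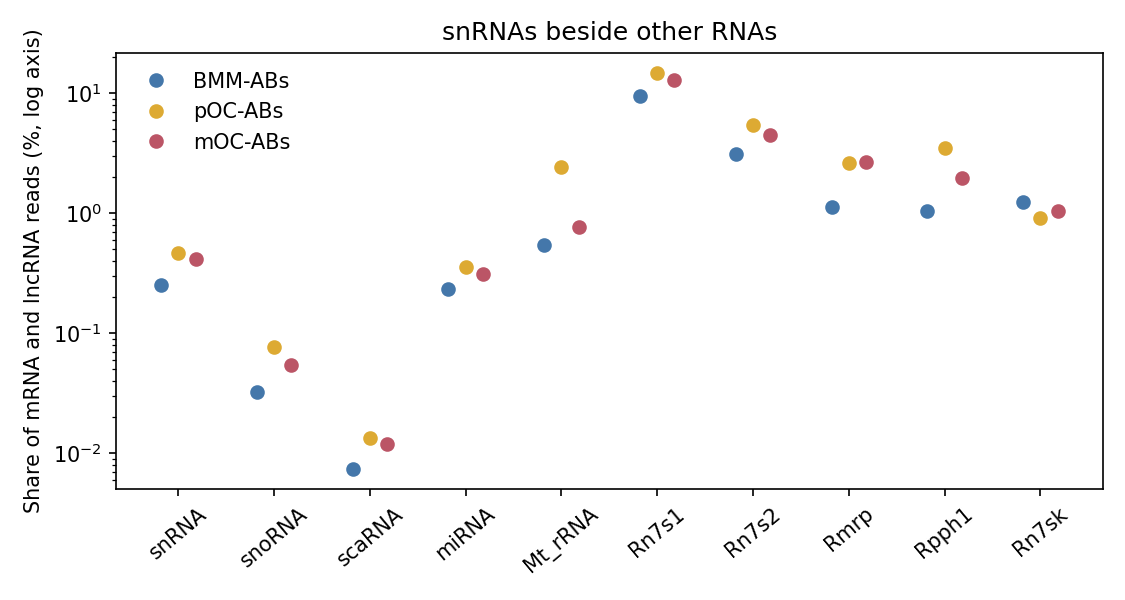
Share of the reads of the mRNA and lncRNA tables (percent, log axis) for snRNAs and other RNAs, with 1 point for each library and no error bars. Rn7sk is the RNA of this plot with its highest point in BMM-ABs, at 1.23%, and snRNAs lie between 0.252% and 0.463%.

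The summed macrophage markers were lower and the summed osteoclast markers higher at each later stage. The 7 macrophage markers, all above 0, summed to 5774, 2764 and 1795 RPM (reads divided by the mRNA-table total, scaled), and 9 of the 10 osteoclast markers were above 0 and summed to 345, 581 and 1870, with Calcr at 0 in each library. Among the macrophage markers, Csf1r (1085, 357 and 506 RPM) and Cd68 (729, 649 and 656) were higher in mOC-ABs than in pOC-ABs, against their sum. Itgb3, an integrin of osteoclasts, had 6, 3 and 0 reads, against the direction of the osteoclast sum, so that 8 of the 10 were above 0 in mOC-ABs. The sums of B cell, T cell and stromal markers (5 of 12 above 0) stayed under 1 RPM in each library, and the 8 neutrophil and erythroid markers had no reads. The part of this change of cells in the snRNA values was not tested.

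U1 was the most abundant class in each library and differed less between ABs than U2. It had 26985, 35107 and 34093 reads, or 2965, 4752 and 4424 RPM. The log2 ratio was 0.68 (0.66 to 0.70), 0.58 (0.55 to 0.60) and -0.10 (-0.12 to -0.08), which did not pass 2-fold in any comparison. Within U1 the subfamilies parted. U1a had 23833, 28787 and 26241 reads, with log2 ratios of 0.57 (0.55 to 0.60), 0.38 (0.35 to 0.40) and -0.19 (-0.22 to -0.17). U1b had 3152, 6320 and 7852 reads, with log2 ratios of 1.30 (1.24 to 1.37), 1.56 (1.497 to 1.62) and 0.25 (0.20 to 0.30), so that it alone was past 2-fold in G1 and G2 and was highest in mOC-ABs.

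**Figure D2:**
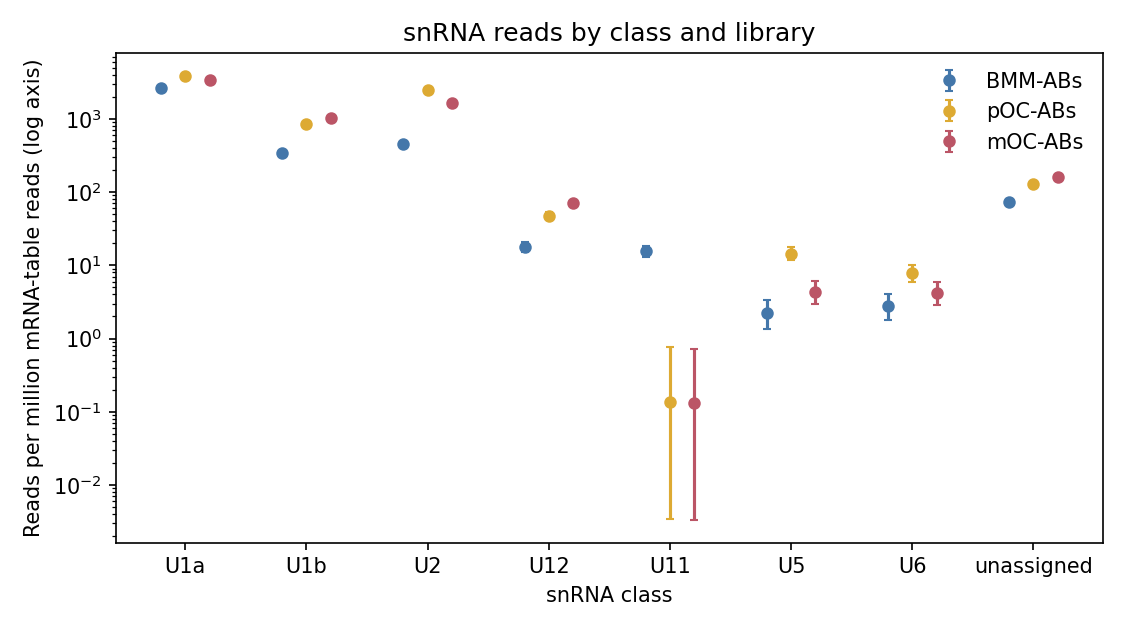
RPM (reads scaled to the mRNA-table total, log axis) of each snRNA class in the 3 libraries, with 95% Clopper-Pearson intervals of counting error. U2 stands at 449 in BMM-ABs and 2489 in pOC-ABs, U1a at 2619 and 3897, and U11 alone is lower in both osteoclast libraries.

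U1b therefore had a larger share of U1 in the later libraries, a ratio within each library that no library total touches. It was 11.7% of U1 reads (11.3 to 12.1), 18.002% (17.6 to 18.4) and 23.0% (22.6 to 23.5). The intervals of the 3 libraries did not overlap. Gm22614 gave 71.9%, 67.5% and 69.4% of the U1b reads, and without it the share of U1b was 3.58%, 6.66% and 8.38%, in the same order. Gm22614 is 96.4% identical to Gm22068, the leading U1a copy, so reads outside the differing letters fit both subfamilies. The share depends on how the counting placed such reads, which is not given in the sources used here.

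**Figure D3:**
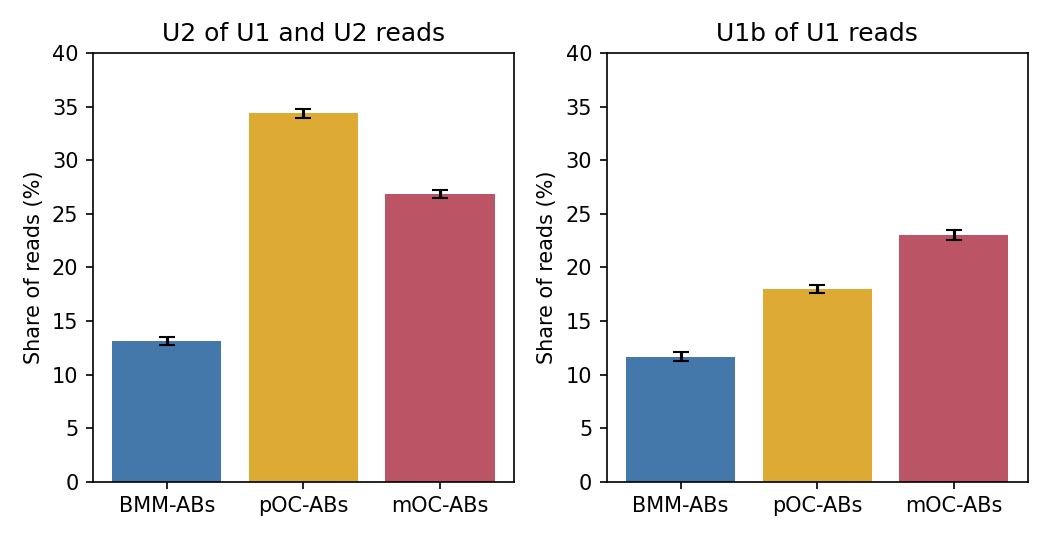
Share of U2 in the reads of U1 and U2 (left) and of U1b in U1 reads (right) in each library, in percent, as bars from 0 with 95% Clopper-Pearson intervals. The share of U2 is highest in pOC-ABs (34.4%), that of U1b in mOC-ABs (23.0%).

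Gm22068, the leading U1a copy, had 9963, 13063 and 11447 reads. Its log2 ratios were 0.69 (0.65 to 0.73), 0.44 (0.40 to 0.48) and -0.25 (-0.29 to -0.22). Gm26244, a U1a copy 1 base away from it in an intron of Rock1, had 5268, 6335 and 5495 reads and log2 ratios of 0.57 (0.51 to 0.62), 0.30 (0.25 to 0.36) and -0.27 (-0.32 to -0.21). Both were highest in pOC-ABs and stayed within 2-fold. Gm24305 had 5116, 4641 and 5559 reads, and its log2 ratios of 0.16 (0.10 to 0.22), 0.36 (0.30 to 0.41) and 0.20 (0.14 to 0.26) placed its highest level in mOC-ABs. Of the 13 U1a copies with at least 20 reads, 5 were more than 2-fold higher in G1 and 1 in G2, none was lower in either, and 3 were more than 2-fold lower in G3. The 3 were Rnu1a1 (126, 260 and 113 reads), Gm22634 (138, 230 and 104) and Gm22513 (38, 86 and 35).

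Of the 7 U1b copies with at least 20 reads, 7 were more than 2-fold higher in G1 and 6 in G2, and none passed 2-fold in G3. Gm22614 had 2266, 4265 and 5452 reads, and log2 ratios of 1.21 (1.14 to 1.29), 1.51 (1.44 to 1.58) and 0.29 (0.24 to 0.35). Rnu1b2, which has the sequence of Rnu1b1, had 28, 110 and 204 reads and the highest ratios of the subfamily, at 2.27 (1.67 to 2.93), 3.11 (2.53 to 3.73) and 0.83 (0.49 to 1.18) on the log2 scale. Rnu1b1 itself had 80, 153 and 267 reads. Rnu1b6 had 418, 1035 and 1114 reads and Gm24830, the copy within 2-fold in G2, 22, 47 and 36.

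More than U1, the other abundant class, U2 set pOC-ABs and mOC-ABs apart from BMM-ABs. It had 4085, 18384 and 12504 reads, or 449, 2489 and 1623 RPM. The sum was 5.54-fold higher in G1 (log2 ratio 2.47, 2.42 to 2.52), 3.61-fold higher in G2 (1.85, 1.80 to 1.91) and 1.53-fold lower in G3 (-0.62, -0.65 to -0.58). U2 was 13.1% of U1 and U2 reads (12.8 to 13.5), 34.4% (34.0 to 34.8) and 26.8% (26.4 to 27.2). On the deposited FPKM, which divides by transcript length, there were 13.0, 45.0 and 31.5 units of U2 for every 100 of U1. The intervals of the shares did not overlap between libraries.

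The difference was listed for nearly the whole class, whose copies were 95.3% to 100% identical to Rnu2-10. How the counting shared reads among such close copies is not given in the sources used here. The copies therefore do not serve as separate measurements of U2. In G1, 11 of 12 U2 copies were more than 2-fold higher and the other, Gm24950, had no reads in either library. Gm24497 had 1706, 8030 and 5145 reads, with log2 ratios of 2.54 (2.46 to 2.61), 1.83 (1.75 to 1.91) and -0.70 (-0.75 to -0.65). Gm25939, a neighbour 3 bases different, had 1052, 4282 and 2840 reads and log2 ratios of 2.33 (2.23 to 2.42), 1.67 (1.57 to 1.78) and -0.65 (-0.72 to -0.58). Gm23971 had 867, 3915 and 2456 reads and log2 ratios of 2.48 (2.37 to 2.58), 1.74 (1.63 to 1.86) and -0.73 (-0.81 to -0.66). These 3 copies, on chromosomes 1 and 11, lay between 2.33 and 2.54 in G1. Gm25813, an intergenic copy on chromosome 8, had 309, 1162 and 725 reads and log2 ratios of 2.21 (2.03 to 2.40), 1.47 (1.28 to 1.67) and -0.74 (-0.88 to -0.61).

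With fewer reads than these, 6 U2 copies were more than 2-fold lower in G3, of which 5 had at least 100 reads. Gm25360 had 68, 448 and 222 reads, with log2 ratios of 3.02 (2.65 to 3.41), 1.95 (1.55 to 2.36) and -1.07 (-1.31 to -0.84). Gm23472 had 24, 129 and 50 reads and log2 ratios of 2.73 (2.09 to 3.42), 1.30 (0.57 to 2.07) and -1.43 (-1.93 to -0.95). For Gm23444, which has the same sequence, 14, 102 and 21 reads gave log2 ratios of 3.17 (2.35 to 4.09), 0.82 (-0.22 to 1.91) and -2.34 (-3.09 to -1.65). Gm23849 had 27, 173 and 37 reads and log2 ratios of 2.98 (2.39 to 3.62), 0.69 (-0.06 to 1.47) and -2.29 (-2.84 to -1.77). Rnu2-10, with 11, 103 and 19 reads, had log2 ratios of 3.53 (2.63 to 4.57), 1.03 (-0.12 to 2.25) and -2.50 (-3.29 to -1.78). In all 5 the pOC-ABs library was highest, and for the last 3 the counting intervals in G2 included no difference. Gm23849 and Rnu2-10 share their sequence with Gm23971 and Gm24950, so reads of these copies cannot be told apart by their letters. In the mRNA table the 4 together stood at -0.33 (-0.39 to -0.26) in G3. Gm26316 (5, 24 and 15 reads) and Gm22973 (2, 16 and 5) were also highest in pOC-ABs. Their log2 ratios in G3 were -0.74 (-1.77 to 0.25) and -1.74 (-3.54 to -0.22), so that Gm22973 was the other copy past 2-fold.

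**Figure D4:**
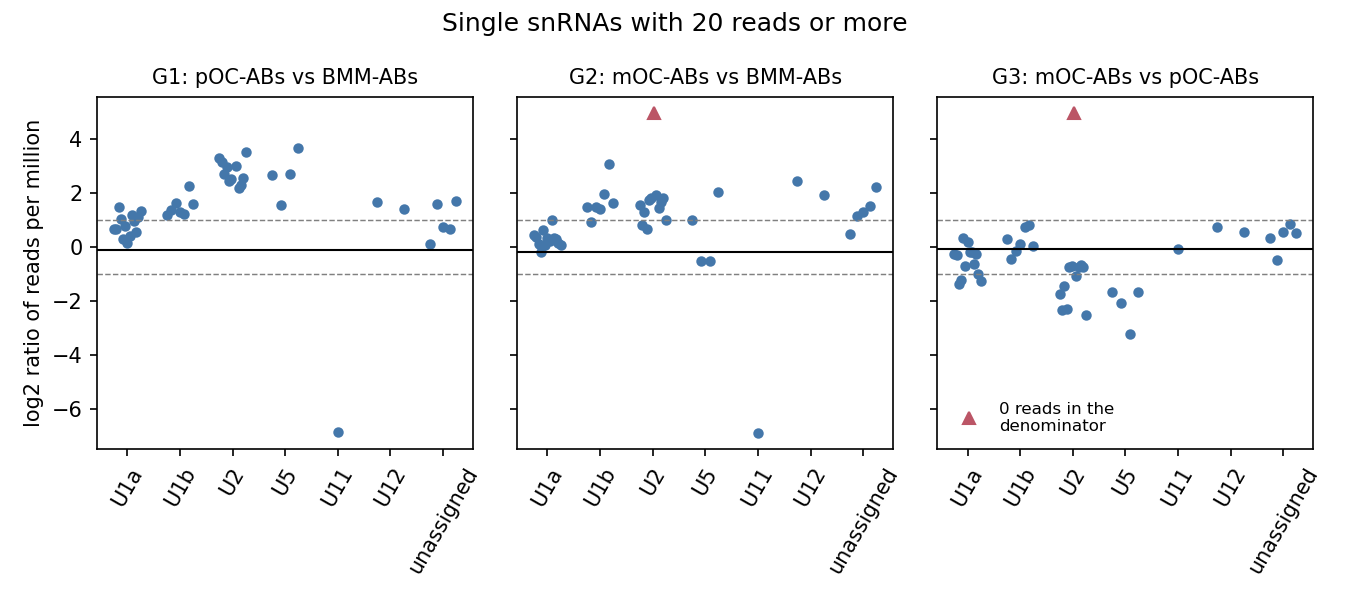
log2 ratio of RPM for the 44 snRNAs with at least 20 reads, by class, in G1, G2 and G3. Each point is 1 snRNA, the black line the median of all 34650 transcripts, the dashed lines 2-fold, and the triangle Gm24950, placed at a set height because the other library had no reads. In G1 the U2 points lie between 2.21 and 3.53 and those of U1a between 0.16 and 1.48.

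Gm24950 was the exception among the U2 copies, with no reads in BMM-ABs and pOC-ABs and 969 in mOC-ABs. Set against 3 reads it was at least 381-fold higher in G2 and at least 310-fold higher in G3. A row of the lncRNA table that spans it, NONMMUT012087.2, had 0, 0 and 757 reads. Its sequence is shared with Gm23971, Gm23849 and Rnu2-10, so a read inside it cannot be assigned to one of the 4 by its letters. The 4 together had 905, 4191 and 3481 reads, of which Gm24950 made up 27.8% in mOC-ABs (26.4 to 29.4). The sum gave log2 ratios of 2.51 (2.41 to 2.62), 2.18 (2.08 to 2.29) and -0.33 (-0.39 to -0.26). In the mRNA table the sequence as a whole thus did not share the G3 direction of Gm24950. This sum leaves out the lncRNA-table row, with which Gm24950 had 0, 0 and 1726 reads. With the 757 reads of that row added, the sequence had more reads in mOC-ABs than in pOC-ABs. Its lower value in G3 therefore held for the mRNA table alone. Which reads of that row came from U2 was not tested.

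The same limit held for the other identical copies. Gm22068, Gm22317, Gm25679, Rnu1a1, Gm22634, Gm23804 and Gm26444 are 7 identical U1a genes with 13330, 17632 and 15065 reads together, and Gm22068 was listed with 74.7%, 74.1% and 76.0% of them. Their sum had log2 ratios of 0.70 (0.67 to 0.74), 0.42 (0.38 to 0.45) and -0.29 (-0.32 to -0.26), within 2-fold in each comparison, while Rnu1a1, Gm22634 and Gm26444 taken singly were past it in G1. Rnu1b6, Gm26232 and Gm24830 summed to 692, 1583 and 1723 reads, Gm22614 and Gm25890 to 2347, 4469 and 5646, and Rnu1b1 and Rnu1b2 to 108, 263 and 471. These U1b sums were past 2-fold in G1 and G2, with log2 ratios in G1 of 1.49 (1.36 to 1.63), 1.23 (1.16 to 1.30) and 1.58 (1.26 to 1.92). How the counting shared reads among identical copies is not given in the sources used here.

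**Figure D5:**
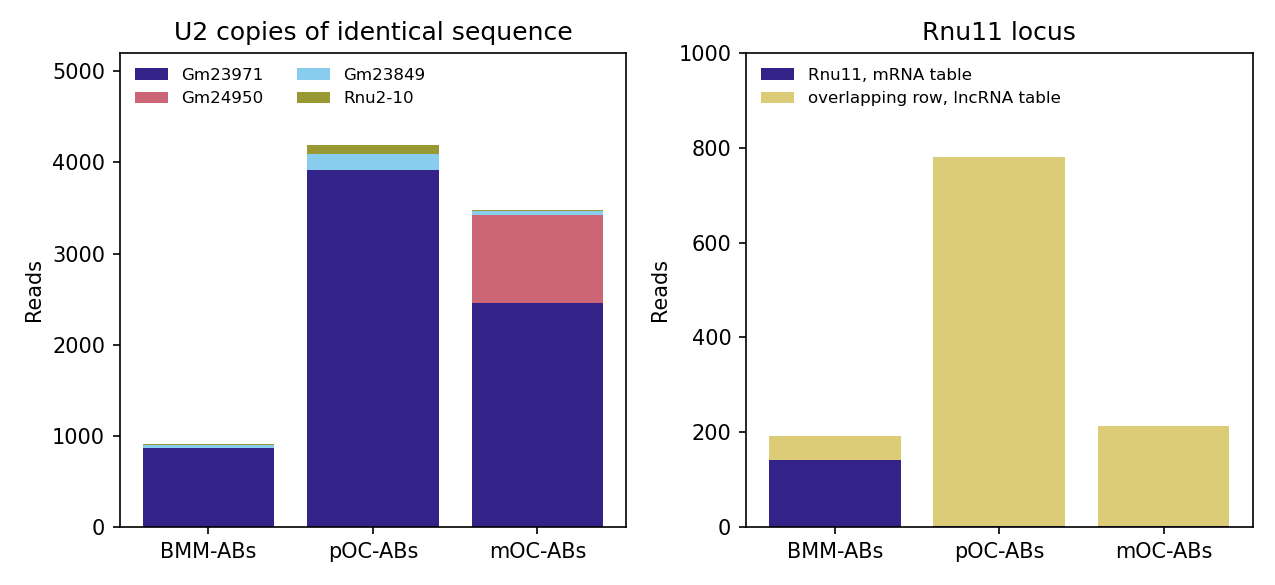
Reads in each library, as stacked bars from 0, of 4 U2 genes of identical sequence (left) and of Rnu11 with the lncRNA-table row that overlaps it (right). Gm24950 appears only in mOC-ABs, with 969 reads, and at the Rnu11 locus the mRNA-table row holds 142 of 191 reads in BMM-ABs and 1 of 781 in pOC-ABs.

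Most reads of U1a, U1b and U2 were listed under copies in gene clusters, although Gm26244 and Gm25813 stood alone. Rnu1a1 and Gm22068, 4.01 kb from end to end on chromosome 11, held 42.3%, 46.3% and 44.1% of U1a reads, and 7 copies within 41.8 kb on chromosome 12 held 35.2%, 31.4% and 34.7%. Of the 7, Gm22317, Gm25679, Gm22634, Gm23804 and Gm26444 have the sequence of Rnu1a1 and Gm22068. Reads inside that sequence cannot be placed in either cluster by their letters. A stretch of 160.5 kb on chromosome 3 held 7 U1b copies with 99.8% of U1b reads, 99.9% and 99.8%. For U2, 4 copies within 29.0 kb on chromosome 1 gave 69.8%, 70.1% and 66.0%, and 5 copies within 53.6 kb on chromosome 11 gave 22.3%, 22.9% and 28.0%. The cluster on chromosome 11 includes Gm24950. Over all 110 members, 60 lay in introns of other genes, 42 between genes and 8 across an exon of another gene.

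U5 and U6, of the tri-snRNP, were present in few reads. U5 had 20, 107 and 33 reads. Its log2 ratio was 2.72 (2.02 to 3.49), 0.96 (0.12 to 1.84) and -1.76 (-2.37 to -1.18). A short lncRNA-table row over a U5 copy that itself had fewer than 20 reads held 31, 174 and 12 reads. With it, U5 had 51, 281 and 45 reads, and over the total of both tables the log2 ratio was 2.56 (2.13 to 3.02), -0.04 (-0.65 to 0.57) and -2.60 (-3.09 to -2.15). All 4 U5 copies with at least 20 reads were highest in pOC-ABs, namely Gm23143 (7, 36 and 12 reads), Gm25313 (5, 27 and 3), Rnu5g (2, 21 and 7) and Gm23287 (5, 12 and 3). The 22 U6 transcripts had 25, 58 and 32 reads, none more than 10, with log2 ratios of 1.51 (0.82 to 2.25), 0.60 (-0.20 to 1.41) and -0.92 (-1.59 to -0.27). By FPKM, U5 stood at 19, 125 and 37, against 18066, 28938 and 26932 for U1. U5 and U6 are abundant snRNAs in cells, and why their reads were few here was not tested.

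U11 and U12, snRNAs of the minor spliceosome, differed from each other. U12 was higher at each later stage, with 163, 352 and 540 reads, of which Rnu12 had 158, 339 and 517. The log2 ratio of U12 was 1.41 (1.14 to 1.69), 1.97 (1.71 to 2.23) and 0.56 (0.36 to 0.75). Gm24525, the other U12 transcript, 96.0% identical to Rnu12 and in an intron of Zfp804b, had 5, 13 and 23 reads. By FPKM there were 5.05 units of U12 for every 100 of U2, 2.42 and 5.46, so that U12 was lowest relative to U2 in pOC-ABs.

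Rnu11 was the member more than 2-fold lower in G1 and G2, with 142 reads in BMM-ABs and 1 read each in pOC-ABs and mOC-ABs. Its log2 ratios were -6.85 (-12.16 to -4.35), -6.91 (-12.22 to -4.41) and -0.06 (-6.36 to 6.23). A row of the lncRNA table, NONMMUT148706.1, covers most of it and had 49, 780 and 211 reads. Both rows together had 191, 781 and 212 reads. Divided by the total of both tables, this sum had log2 ratios of 2.13 (1.90 to 2.37), 0.29 (0.00 to 0.58) and -1.84 (-2.07 to -1.62). Thus the lower level of Rnu11 held for its own row alone, and the locus was highest in pOC-ABs like U2 and U5. The lncRNA table gives no strand, and which of its reads came from U11 was not tested.

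The 42 unassigned transcripts had 674, 957 and 1232 reads, with log2 ratios of 0.81 (0.66 to 0.95), 1.11 (0.97 to 1.25) and 0.30 (0.18 to 0.43). Gm24407 and Gm24265, neighbours on chromosome 5 that differ at 2 of 141 bases, held most of these reads. Without Gm24407 the class stood at 0.90, 0.66 and -0.24 on the log2 scale, so that it no longer passed 2-fold in G2 and its direction in G3 turned. Gm24407 had 420, 572 and 892 reads and Gm24265 107, 267 and 200, so that the first was highest in mOC-ABs and the second in pOC-ABs. Gm22710, across an exon of 2900060B14Rik on the same strand, had 34, 30 and 40 reads, and an overlapping lncRNA-table row 14, 115 and 29. Gm25179 (14, 18 and 34 reads) and Gm25541 (6, 16 and 24) were more than 2-fold higher in G2. Of the 5 unassigned transcripts with at least 20 reads, 2 were more than 2-fold higher in G1 and 4 in G2, and none passed 2-fold in G3. Gm22710 together with its lncRNA-table row had 48, 145 and 69 reads. Over the total of both tables that sum was past 2-fold in G1 and G3, at 1.70 (1.22 to 2.20), 0.66 (0.11 to 1.23) and -1.03 (-1.47 to -0.61) on the log2 scale. The only U7 transcript had 1 read in each library.

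The genes of the proteins that bind, build or process snRNAs differed little between the libraries beside the RNAs. Of 90 genes in 9 lists, 89 were in the table, each with at least 20 reads when its transcripts were summed. In G1, 2 (2.25%) were more than 2-fold higher and 1 (1.12%) lower, against 4.87% and 6.07% of the 12702 genes with as many reads. In G2, none was higher and 1 (1.12%) lower, against 4.16% and 8.99%, and in G3, 1 (1.12%) was higher and 2 (2.25%) lower, against 3.5% and 6.83%. The median log2 ratios of the 89 were 0.14, 0.09 and -0.04, where those of all genes were -0.02, -0.05 and -0.05.

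Snrpb, which encodes the Sm proteins B and B′ and led the Sm list, had 1398, 1184 and 1262 reads and a ratio of 0.06 on the log2 scale in G1 (-0.05 to 0.17). The 7 Sm genes lay between 0.06 and 0.91 in G1, with a median of 0.60. Snrpa, the U1 protein A, had 997, 970 and 1241 reads, and the 3 U1 protein genes lay between -0.33 and 0.96. Sf3b2, of the SF3b complex that holds U2 on the branch site, had 4583, 3654 and 3821 reads, and its log2 ratio in G1 was -0.03 (-0.09 to 0.04). The 12 U2 protein genes had a median of 0.19 in G1, 0.07 in G2 and -0.08 in G3, where U2 itself stood at 2.47, 1.85 and -0.62. None of the Sm, U1 or U2 protein genes passed 2-fold in any comparison.

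Prpf8, the U5 protein at the heart of the spliceosome, had 6498, 4051 and 5990 reads and stood at -0.38 in G1 on the log2 scale (-0.44 to -0.32). Among the 16 tri-snRNP genes, Txnl4a, a small U5 protein, had 123, 255 and 159 reads and was past 2-fold in G1 (1.35, 1.04 to 1.68). Ppih, a cyclophilin of the U4/U6 snRNP, had 41, 47 and 13 reads and was past 2-fold in G2 (-1.42, -2.44 to -0.49) and G3 (-1.92, -2.93 to -1.01). Lsm4, of the ring that binds U6, had 804, 666 and 871 reads, and Zcrb1, of the U11/U12 snRNP, 269, 299 and 251. No LSm or U11/U12 protein gene passed 2-fold.

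Smn1, which loads Sm rings onto snRNAs, had 279, 266 and 250 reads and log2 ratios of 0.23 (-0.02 to 0.48), 0.08 (-0.17 to 0.33) and -0.15 (-0.41 to 0.10). Gemin5, which picks snRNAs for that loading, had 900, 557 and 731 reads, and no gene of the assembly, export and capping list passed 2-fold. Ints3, of the Integrator complex that cuts the 3′ ends of nascent snRNAs, had 1766, 1339 and 1747 reads. Snapc5, of the complex that binds snRNA promoters, had 82, 25 and 97 reads, past 2-fold lower in G1 (-1.41, -2.12 to -0.75) and higher in G3 (1.90, 1.25 to 2.59), while the lncRNA-table row at its locus had 22, 71 and 23. The other 18 genes for snRNA synthesis and 3′ end formation stayed within 2-fold. Ssb, the La protein that binds new U6, had 636, 929 and 648 reads. Hexim1, a partner of Rn7sk, had 1021 reads in pOC-ABs and none in the other libraries, which made it at least 419-fold higher in G1 and at least 355-fold lower in G3 against 3 reads, and the lncRNA-table rows at its locus had 38, 22 and 17 reads.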

How the data were processed

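The authors deposited read counts and FPKM per transcript for mRNAs and lncRNAs, with 1 library for each kind of AB. The FPKM of the mRNA table divides the counts by transcript length and by the total of that table. The submitters' processing notes name FastQC, HISAT2, StringTie and GRCm38, and the counting of reads at repeated sequences is not given in the sources used here. The circRNA table was not used.

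Counts were divided by the total of the mRNA table (9100082 reads for BMM-ABs, 7387317 for pOC-ABs, 7705592 for mOC-ABs), and the lncRNA table held 3634682, 4478015 and 3851365 reads. Ratios carry 95% Clopper-Pearson intervals of the reads of the compared libraries, which cover counting error only, since the reads carry no molecular identifiers. In these libraries 3 reads equal 0.330, 0.406 and 0.389 RPM. A member was past 2-fold with a ratio above 2 or below 0.5 and at least 20 reads over the 3 libraries. With 1 library per group no test was made. Where a library had no reads, the ratio was taken against 3 reads. Transcript types, loci and sequences are those of GENCODE M21. A lncRNA row was placed at an snRNA when it covered at least 50% of it. Classes came from global alignment (Biopython 1.88) and intervals from SciPy 1.17.1, whose use was tested on simulated data.

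The members and lists were chosen with earlier results of these data known. All members with at least 20 reads could be named, and every comparison is given for the 5 with most reads and for members with at least 100 reads past 4-fold. Of the protein genes, the 1 with most reads in each list, those past 2-fold and Smn1 are named. Classes by identity, the limit of 90%, the split into U1a and U1b, shares within a library and sums over identical copies or over both tables were chosen after the values were seen. Of the sequences that the rule for naming allowed, those on chromosome 18 and most of the near-identical copies are not printed, and 1 sequence is not reported here. Alternatives were other scalings (both tables, median-of-ratios size factors, upper quartile at percentile 75), 0.5 reads added, FPKM in place of reads, other limits of reads and fold, and leaving out members.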

Additional observations from a re-analysis of the deposited data

How the results depend on the processing

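The direction of the summed snRNAs, U1 and U2 in G1 and G2 was the same under each of the 3 other scalings, although most values left their counting intervals. The side of the 2-fold limit changed for the sum of all members. It was within 2-fold in G1 with the total of both tables (0.88) and past it in G2 with the upper quartile (1.06). With the total of both tables, the log2 ratios in G1, G2 and G3 were 0.88, 0.73 and -0.14 for all members, 0.48, 0.48 and -0.0043 for U1 and 2.27, 1.75 and -0.52 for U2, with 0.61 for the unassigned in G1, and the snRNA share was 0.252%, 0.463% and 0.419%. With median-of-ratios size factors they were 1.13, 0.98 and -0.15 for all members, 0.73, 0.72 and -0.0084 for U1, 1.998 and -0.52 for U2 in G2 and G3 and 1.25 for the unassigned in G2. With the upper quartile they were 1.22, 1.06 and -0.16 for all members, 0.82, 0.81 and -0.0148 for U1, 2.61, 2.08 and -0.53 for U2 and 1.34 for the unassigned in G2, and 4 protein genes were higher in G1 and 1 in G2. Of the 129 log2 ratios of single snRNAs, 25, 17 and 28 left their counting intervals under these 3 scalings and none past 2-fold changed sign. Against the main scale, these scalings shifted every log2 ratio by -0.20, -0.10 and 0.10 (both tables), 0.05, 0.14 and 0.09 (size factors) and 0.14, 0.23 and 0.09 (upper quartile).

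Summed FPKM gave 1.03 and 0.81 for all members in G1 and G2 and made snRNAs 3.36%, 5.83% and 5.24% of the summed FPKM. Without the leading member of each sum, the snRNA share was 0.243%, 0.567% and 0.480%, and the log2 ratios were 1.22 and 0.98 for all members in G1 and G2, 0.65 and -0.0220 for U1 in G2 and G3, -0.55 for U2 in G3, 2.44 and 0.76 for U12 and 0.66 and -0.24 for the unassigned in G2 and G3. Without a minimum of reads, 50, 38 and 8 members were higher in G1, G2 and G3 and 13, 18 and 38 lower. At a limit of 1.5-fold, 5 members were higher and 21 lower in G3, and the protein genes counted 13, 5 and 3 higher and 3, 5 and 6 lower. Chosen after seeing the data, classes from gene names alone gave 1.56, 1.62 and 0.0633 for U1 (4 genes), 3.53, 1.03 and -2.50 for U2 (1 gene) and 3.69 and 2.05 for U5 in G1 and G2, and an identity limit of 80% changed no class by more than its counting interval. Also chosen then, the lncRNA row added to Rnu11 turned its log2 ratio from -6.85 to 2.13 in G1 and from -6.91 to 0.29 in G2, that added to Gm22710 gave -1.03 in G3, and that added to U5 gave -0.0406 in G2 and -2.60 in G3. No paired analysis was possible because each group has 1 library and the labels carry no replicate numbers, and for the same reason no library could be left out. The depth limits U5, U6 and U11, where single libraries held 1 to 142 reads.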
